A study of Homo sapiens with 52 samples.

Results

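Expression of 8 genes of fatty acid handling was followed in liver tumour cells and macrophages: the nuclear receptor gene PPARA and 7 genes that it is known to regulate, FABP1, CPT1A, CPT2, ACADM, EHHADH, PDK4 and PLIN2. They were taken by symbol from the raw count tables, where each of the 8 had 1 row among 62696 genes in the tumour lines and 1 row among 61209 genes in THP-1. In each set of libraries 7 of the 8 had enough reads to be tested, and PDK4 did not. PPARA is a receptor for fatty acids that binds DNA together with a retinoid X receptor and switches on fatty acid oxidation in the fasting liver. FABP1 carries fatty acids in the cytoplasm of hepatocytes. CPT1A and CPT2 move long-chain fatty acids across the mitochondrial membranes as carnitine esters, ACADM starts the mitochondrial breakdown of medium-chain fatty acids, and EHHADH acts in the peroxisomal pathway. PDK4 holds back the entry of pyruvate into mitochondria when fat is burnt, and PLIN2 coats the lipid droplets in which fat is stored.

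RNA was measured by poly(A) sequencing in 52 libraries. HepG2 and Huh6, cell lines from liver tumours of children studied here as hepatoblastoma models, received vehicle, PKF118-310 or iMDK for 48 h. PKF118-310 disrupts the binding of beta-catenin to TCF factors, and iMDK lowers the growth factor midkine. Huh6 was treated with 0.2, 0.3 and 0.4 uM PKF118-310 and with 5 and 10 uM iMDK, and HepG2 with 0.2 and 0.3 uM PKF118-310 and the same iMDK doses. THP-1, a monocytic leukaemia line turned into macrophages with a phorbol ester, was kept alone or cultured for 24 h in direct contact with HepG2 or Huh6 cells and then sorted. The tumour cells in these co-cultures were untreated or had first received 5 or 10 uM iMDK for 24 h. There were 3 libraries in a group, but a single one for the 0.3 uM PKF118-310 dose in HepG2. The labels do not say whether libraries came from separate cultures, so the p-values measure only the spread between these libraries. Libraries held 18.2 to 20 M counts in the tumour lines and 12.6 to 16.9 M in THP-1. Levels are in CPM, the counts of a gene per megaread of its library after scaling by edgeR's TMM factors, which compare one gene between libraries and not one gene with another. Changes are log2 fold changes ± SE, and a gene was called higher or lower where the adjusted p of edgeR's quasi-likelihood test was below 0.05.

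The largest changes among the 8 genes were in FABP1, so the stretch before its start is shown with the nearest likeness to a PPARA site. PPARA with its partner receptor binds direct repeats of a hexamer with 1 base between them, searched here as AGGTCANAGGTCA on both strands with up to 2 mismatches. The window ran from 250 bases before to 50 bases after each start in RefSeq (GRCh38.p14), and 2.97% of 35116 such windows held a match. Of the 8 genes, 7 had a window, and FABP1 was the 1 gene with a match. The stretch below lies at chr2:88128117-88128312 on the minus strand and covers positions -250 to -55 of the window, with the match in capitals as it reads on the gene's strand.
FABP1: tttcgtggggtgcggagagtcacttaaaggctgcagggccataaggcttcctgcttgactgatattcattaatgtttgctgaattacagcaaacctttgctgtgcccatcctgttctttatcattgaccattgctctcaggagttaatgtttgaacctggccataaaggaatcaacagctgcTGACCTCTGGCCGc
Read on the opposite strand the match is cGGcCAGAGGTCA, in which the lower-case letters are the 2 bases that differ from the motif. These letters describe the window only, since no binding was measured. FABP1 itself spans chr2:88122982-88128116 on the minus strand of GRCh38. The receptor gene PPARA spans chr22:46150521-46243756 on the plus strand, and CPT1A, the gene that differed most between the lines, chr11:68754620-68844410 on the minus strand.

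PDK4 was listed at 0 counts in all 31 tumour line libraries and all 21 THP-1 libraries. At the depth of these libraries 3 counts correspond to 0.15 to 0.165 CPM in the tumour lines. The related kinase genes PDK1, PDK2 and PDK3 had counts in every library, with at least 273, 152 and 149 counts in the tumour lines. The PDK4 antisense gene PDK4-AS1 had 0 to 11 counts there. Other genes listed at 0 throughout include ETFB, a subunit of the electron carrier that serves every mitochondrial acyl-CoA dehydrogenase, and the macrophage gene CD68, so the PDK4 row of 0 was not read as an absent transcript, and no level is given for it.

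With vehicle alone the lines differed in all 7 tested genes, where 83% of all genes tested differed. The changes come from a joint fit of both lines, and the CPM of single libraries were scaled within each line. Folds and CPM therefore do not match exactly, as for FABP1 with means of 330 and 21.4 CPM in the joint fit. CPT1A showed the widest gap. Its CPM were 133, 123 and 119 in HepG2 and 0.55, 0.459 and 0.403 in Huh6, the latter from 8 to 11 reads per library. The difference was 7.99 ± 0.1 on the log2 scale, or 254-fold, a size that rests on these few Huh6 reads. CPT1A passed the filter on low counts of this comparison through HepG2, so its call among the 7 is a description, with no test. FABP1 was 15.4-fold higher in HepG2 (log2 3.95 ± 0.046, adjusted p = 5.6e-33), with CPM of 349, 328 and 340 against 22.2, 18.9 and 22.9. PLIN2 was 4.28-fold higher in HepG2, and PPARA itself 2.67-fold higher, at 78.6, 68.1 and 73.5 CPM against 27.5, 26.8 and 25.9. EHHADH, ACADM and CPT2 were lower in HepG2. EHHADH was 3.37-fold lower in HepG2 (log2 -1.75 ± 0.043, adjusted p = 5.51e-25), at 37.8, 37.2 and 39.8 CPM against 124, 124 and 128, and ACADM was 1.33-fold lower. For CPT2 the ranges overlapped (4.56 to 6.12 CPM in HepG2, 5.45 to 7.5 in Huh6), and the call (log2 -0.37 ± 0.16, adjusted p = 0.0287) was lost without HepG2 vehicle library 1 or 3 or Huh6 vehicle library 2 or 3, with adjusted p from 0.07 to 0.143. The wider pathway lists had no common direction, with 9 of 13 tested genes of mitochondrial beta-oxidation higher and 4 lower in HepG2, and 7 of 13 peroxisomal genes higher and 5 lower. Part of some genes' exons is shared with a neighbour in the GENCODE annotation, 12% of the bases for CPT2, 5.72% for EHHADH and 3.28% for ACADM, and the sources do not give how reads there were assigned.

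**Figure D1:**
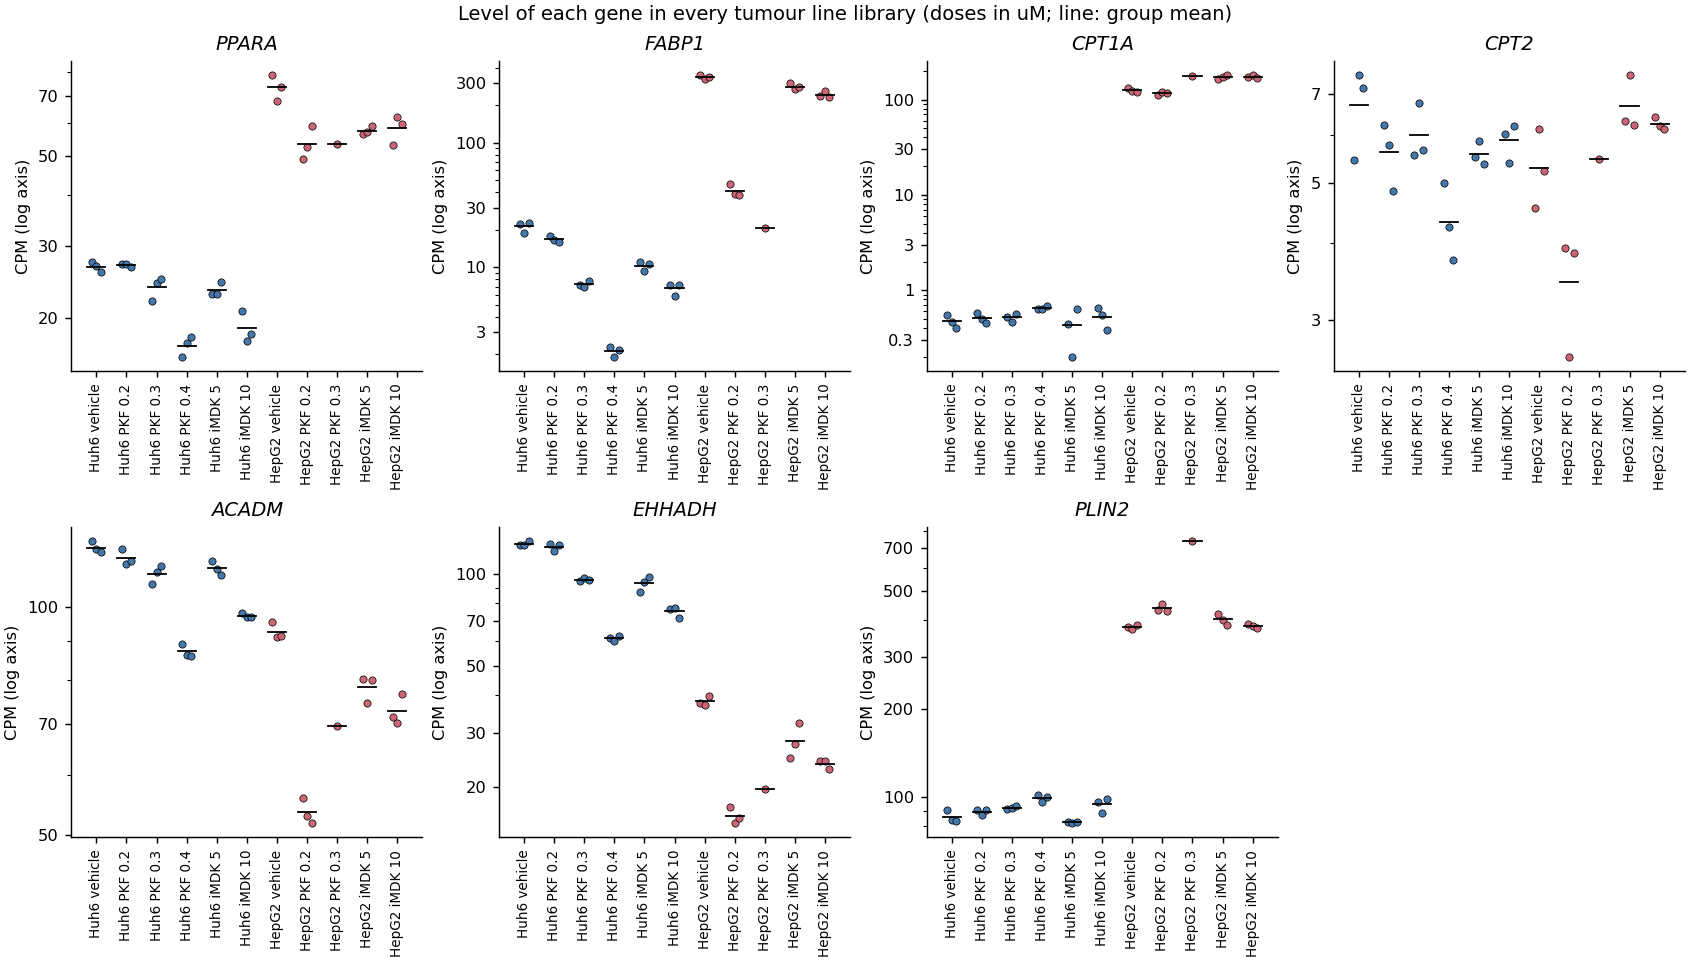
Level of each of the 7 detected genes in CPM on a log axis, in every library of Huh6 (blue) and HepG2 (red), by treatment with doses in uM. Each point is a library and each line a group mean. FABP1 falls over the PKF118-310 doses in both lines, and CPT1A is below 1 CPM in every Huh6 library.

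At its highest dose with 3 libraries, each inhibitor lowered most of the 7 tested genes in both lines. Over all doses PLIN2 was the gene that rose most often. Beside each count stands the percentage of all genes tested that went the same way. In Huh6, PKF118-310 at 0.2 uM left 1 of the 7 tested genes lower (1.2%). At 0.3 uM 3 were lower (13.5%) and 1 higher (15%), and at 0.4 uM 5 were lower (27.9%) and 1 higher (28.9%). In HepG2, 6 were lower (33.4%) and 1 higher (34.3%) already at 0.2 uM. iMDK left 4 lower in Huh6 at 5 uM (18.3%), and 4 lower (26.1%) and 1 higher (26%) at 10 uM. In HepG2 it left 4 lower (24.1%) and 2 higher (23.2%) at 5 uM, and 4 lower (27.2%) and 1 higher (27.3%) at 10 uM. The median log2 change of the 7 genes was -0.63 in Huh6 at 0.4 uM PKF118-310 and -0.61 in HepG2 at 0.2 uM, where the medians over all genes tested were -0.01 and 0.01. Under iMDK at 10 uM it was -0.3 in Huh6 and -0.33 in HepG2. Comparisons within a line share their vehicle libraries.

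Markers of the hepatoblastoma cells moved in the same groups. Their summed level, in CPM without TMM scaling like all marker levels here, was 32000 to 35000 in HepG2 with vehicle. It was 8080 to 8950 at 0.2 uM PKF118-310, with 19 of 19 tested markers lower (33.4% of all genes tested), and 24200 to 24800 at 10 uM iMDK. In Huh6 the sum was 12700 to 12800 with vehicle, 7520 to 8500 at 0.4 uM PKF118-310 and 9130 to 9300 at 10 uM iMDK. At 0.4 uM PKF118-310 17 of 18 were lower (27.9% of all genes tested) and 1 higher (28.9%). VTN was at 0 in every group, DLK1 was below 1 CPM in Huh6, and ALB fell below 1 CPM in Huh6 at 0.4 uM PKF118-310. Their part in the changes of the fatty acid genes was not tested, and in bulk RNA fewer cells of a kind and less RNA per cell cannot be told apart. Of 14 macrophage markers 3 reached 1 CPM in each HepG2 group and 4 or 5 in each Huh6 group. PTPRC, CD53 and SPI1 were below 1 CPM in all of these groups. CD68 was at 0 in them and in every THP-1 group, so it cannot tell the cells apart. Without TMM scaling the list summed to 1110 to 1240 CPM in HepG2 with vehicle and 229 to 267 at 0.2 uM PKF118-310, where LYZ fell (log2 -2.39 ± 0.043), and to 64.7 to 66.6 in Huh6 with vehicle and 75.6 to 78.4 at 0.4 uM.

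FABP1 had the largest fall in every inhibitor group of Huh6 and under PKF118-310 in HepG2. Huh6 libraries had 22.2, 18.9 and 22.9 CPM with vehicle, 17.9, 16.7 and 15.9 at 0.2 uM PKF118-310, 7.15, 7.01 and 7.77 at 0.3 uM and 2.31, 1.91 and 2.17 at 0.4 uM. No library of any dose overlapped those of the dose below. The change against vehicle was -0.34 ± 0.086 at 0.2 uM (adjusted p = 0.0177), -1.54 ± 0.098 at 0.3 uM (adjusted p = 7.46e-17) and -3.32 ± 0.12 at 0.4 uM (adjusted p = 9.59e-26), the last a 9.98-fold fall. The call at 0.2 uM was lost without vehicle library 1 or 3 or treated library 2 or 3, with adjusted p from 0.0783 to 0.156. The steps from 0.2 to 0.3 uM (-1.2 ± 0.1, adjusted p = 8.69e-13) and from 0.3 to 0.4 uM (-1.77 ± 0.15, adjusted p = 1.86e-13) were each called too.

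In HepG2, FABP1 fell from 349, 328 and 340 CPM with vehicle to 46.6, 38.6 and 37.8 at 0.2 uM PKF118-310. This was an 8.26-fold fall (-3.05 ± 0.053, adjusted p = 4.49e-36), at a dose where Huh6 lost 1.27-fold. The difference between the lines in the response to 0.2 uM was itself called (HepG2 minus Huh6 -2.7 ± 0.095, adjusted p = 7.26e-28). The single HepG2 library at 0.3 uM had 20.8 CPM, below every library at 0.2 uM, and has no replicate check.

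iMDK lowered FABP1 more in Huh6 than in HepG2, the reverse of the order under PKF118-310. Huh6 libraries had 11, 9.27 and 10.6 CPM at 5 uM and 7.28, 5.9 and 7.23 at 10 uM, changes of -1.05 ± 0.092 (adjusted p = 8.03e-13) and -1.65 ± 0.099 (adjusted p = 1.95e-18). HepG2 libraries had 300, 271 and 278 CPM at 5 uM and 238, 259 and 232 at 10 uM, changes of -0.26 ± 0.044 (adjusted p = 3.35e-06) and -0.48 ± 0.044 (adjusted p = 2.73e-12). In neither line did treated libraries overlap vehicle. The HepG2 response was smaller than that of Huh6 by 0.82 ± 0.089 at 5 uM (adjusted p = 3.36e-09) and 1.21 ± 0.098 at 10 uM (adjusted p = 4.91e-15). The step from 5 to 10 uM was called in both lines, at -0.6 ± 0.11 in Huh6 and -0.22 ± 0.044 in HepG2.

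PPARA, the receptor gene, changed less than FABP1 under PKF118-310. At 0.4 uM PKF118-310 its Huh6 libraries had 16.1, 17.4 and 18 CPM against 27.5, 26.8 and 25.9 with vehicle, a change of -0.64 ± 0.071 (adjusted p = 2.25e-10). At 0.2 uM they had 27.1, 27.2 and 26.7 CPM, within the vehicle range (0.01 ± 0.066, adjusted p = 0.965), and at 0.3 uM the change was -0.17 ± 0.068 (adjusted p = 0.0622). HepG2 at 0.2 uM had 48.9, 52.5 and 59 CPM against 78.6, 68.1 and 73.5, a change of -0.46 ± 0.059 (adjusted p = 8.09e-09) that differed from that of Huh6 by -0.47 ± 0.087 (adjusted p = 8.04e-06). The single 0.3 uM library had 53.4 CPM.

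Under iMDK, PPARA fell in HepG2 at 5 uM (-0.35 ± 0.058, adjusted p = 2.63e-06) and 10 uM (-0.33 ± 0.058, adjusted p = 5.61e-06). The 3 libraries had 56.4, 57 and 59 CPM at 5 uM and 53, 62.1 and 59.8 at 10 uM, so the doses overlapped (0.02 ± 0.059, adjusted p = 0.88). In Huh6 the change was -0.5 ± 0.07 at 10 uM (adjusted p = 5.42e-08) and -0.19 ± 0.067 at 5 uM (adjusted p = 0.0224). The call at 5 uM was lost without vehicle library 1 or 2 or treated library 1 or 2 (adjusted p from 0.0591 to 0.088) and with no filter on low counts (0.0508). A difference between lines in the iMDK response of PPARA was not called at 5 uM (-0.14 ± 0.08, adjusted p = 0.209) or 10 uM (0.21 ± 0.092, adjusted p = 0.0603). At 5 uM it passed without HepG2 vehicle library 2 (adjusted p = 0.048), and at 10 uM without Huh6 treated library 1, HepG2 vehicle library 1 or HepG2 treated library 1 (0.0142 to 0.0233).

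CPT1A, which catalyses the rate-setting step of long-chain fatty acid entry into mitochondria, was the 1 gene of the set that rose under iMDK in HepG2 at both doses. Its libraries had 133, 123 and 119 CPM with vehicle, 166, 171 and 180 at 5 uM and 172, 179 and 167 at 10 uM, with no overlap between vehicle and either dose. The changes were 0.46 ± 0.041 (adjusted p = 1.36e-12) and 0.47 ± 0.041 (adjusted p = 6.14e-13), each 1.38-fold, and between the doses the change was 0.01 ± 0.039 (adjusted p = 0.954). Under 0.2 uM PKF118-310 it had 112, 121 and 116 CPM, which overlapped vehicle. That change (-0.1 ± 0.042, adjusted p = 0.0263) was lost without vehicle library 1 or treated library 1 or 3, with adjusted p from 0.0672 to 0.207. The single 0.3 uM library had 177 CPM. In Huh6 CPT1A rested on 4 to 13 reads per library, and no change was detectable at this depth: the SE was 0.41 to 0.44 in every comparison with vehicle.

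CPT2, the partner enzyme on the inner membrane, fell at the highest PKF118-310 dose with 3 libraries in each line. Huh6 at 0.4 uM had 5, 4.25 and 3.75 CPM against 5.45, 7.5 and 7.15 with vehicle (-0.63 ± 0.14, adjusted p = 0.00022), and HepG2 at 0.2 uM had 3.92, 2.61 and 3.85 against 4.56, 6.12 and 5.23 (-0.61 ± 0.16, adjusted p = 0.000981). The groups did not overlap in either line. The single HepG2 library at 0.3 uM had 5.48 CPM, within the vehicle range and above the 3 at 0.2 uM, and has no replicate check. Under iMDK CPT2 was not called against vehicle in either line. Its change was 0.33 ± 0.15 in HepG2 at 5 uM (adjusted p = 0.0592) and -0.26 ± 0.14 in Huh6 (adjusted p = 0.133). The HepG2 value passed without vehicle library 2 (0.45, adjusted p = 0.0226) or treated library 3 (0.38, adjusted p = 0.0469), and the Huh6 value without vehicle library 1 (-0.39, adjusted p = 0.0314). The difference of these responses was 0.62 ± 0.2 (adjusted p = 0.0182) and was lost without Huh6 vehicle library 2, HepG2 vehicle library 1 or HepG2 treated library 2, with adjusted p from 0.0643 to 0.0754.

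EHHADH, the bifunctional enzyme of peroxisomal oxidation, had the second largest fall of the set after FABP1 in each group that changed it in Huh6 and under PKF118-310 in HepG2, and the largest fall under iMDK in HepG2. Huh6 libraries had 124, 124 and 128 CPM with vehicle, 94.7, 96.8 and 95.4 at 0.3 uM PKF118-310 and 61.6, 60.1 and 62.5 at 0.4 uM. The changes were -0.39 ± 0.037 (adjusted p = 1.32e-11) and -1.03 ± 0.039 (adjusted p = 1.55e-25), and at 0.2 uM the change was -0.03 ± 0.036 (adjusted p = 0.807). HepG2 at 0.2 uM had 17.1, 15.2 and 15.8 CPM against 37.8, 37.2 and 39.8, a 2.39-fold fall (-1.26 ± 0.076, adjusted p = 7.96e-18). The lines differed in this response by -1.22 ± 0.07 (adjusted p = 7.11e-20). The single 0.3 uM library had 19.7 CPM, above the 3 at 0.2 uM.

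Under iMDK, EHHADH fell in both lines at both doses. Huh6 had 87.4, 94.3 and 97.5 CPM at 5 uM and 76.9, 77.2 and 71.9 at 10 uM (-0.43 ± 0.037 and -0.73 ± 0.038, adjusted p = 4.97e-13 and 1.22e-20). HepG2 had 24.8, 27.6 and 32.3 CPM at 5 uM and 24.3, 24.2 and 22.9 at 10 uM (-0.44 ± 0.071 and -0.68 ± 0.072, adjusted p = 1.67e-06 and 1.31e-10). All treated libraries lay below vehicle. The differences between lines were 0.02 ± 0.082 at 5 uM and 0.1 ± 0.07 at 10 uM and were not called (adjusted p = 0.922 and 0.294). The step from 5 to 10 uM was called in Huh6 (-0.3 ± 0.039, adjusted p = 3.53e-08). In HepG2 it was -0.24 ± 0.074 (adjusted p = 0.0219) and was lost without 5 uM library 3 (-0.13, adjusted p = 0.299) or 10 uM library 3 (-0.22, adjusted p = 0.0984).

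ACADM moved with EHHADH at a smaller size. Huh6 had 122, 119 and 118 CPM with vehicle and 89.4, 86.4 and 86 at 0.4 uM PKF118-310 (-0.46 ± 0.034, adjusted p = 1.9e-15), and at 0.3 uM the change was -0.12 ± 0.033 (adjusted p = 0.00407). HepG2 had 95.5, 91.2 and 91.4 CPM with vehicle and 55.9, 52.9 and 51.8 at 0.2 uM (-0.79 ± 0.046, adjusted p = 2.37e-18). The response to 0.2 uM was stronger in HepG2 by -0.74 ± 0.055 (adjusted p = 4.95e-16). The single 0.3 uM library had 69.6 CPM, above the 3 at 0.2 uM and below vehicle. iMDK at 10 uM lowered ACADM in Huh6 to 98.2, 96.8 and 96.8 CPM (-0.3 ± 0.034, adjusted p = 2.7e-10) and in HepG2 to 71.4, 70.2 and 76.7 (-0.35 ± 0.045, adjusted p = 1.27e-08). At 5 uM the change was -0.24 ± 0.045 in HepG2 (adjusted p = 1.54e-05) and -0.09 ± 0.033 in Huh6 (adjusted p = 0.0222). The latter was lost without vehicle library 1 or treated library 2 or 3 (adjusted p from 0.0616 to 0.119) and with no filter on low counts (0.0854). The difference between lines was not called at 5 uM (-0.12 ± 0.054, adjusted p = 0.0801). It passed without HepG2 vehicle library 2 or HepG2 treated library 1 or 3 (adjusted p from 0.0325 to 0.0413).

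PLIN2, which coats stored fat rather than burning it, rose under PKF118-310 in both lines. Huh6 had 90.3, 84 and 83.4 CPM with vehicle and 102, 96.7 and 100 at 0.4 uM (0.21 ± 0.039, adjusted p = 7.95e-06). HepG2 had 378, 373 and 383 CPM with vehicle and 431, 453 and 429 at 0.2 uM (0.21 ± 0.032, adjusted p = 2.55e-07). No treated library overlapped vehicle in either line. The single HepG2 library at 0.3 uM had 739 CPM, 0.97 on the log2 scale above the vehicle mean and the highest PLIN2 level of the 13 HepG2 libraries. At 0.3 uM in Huh6 the change was 0.1 ± 0.039 (adjusted p = 0.0398), which was lost without vehicle library 2 or 3 or treated library 2 or 3 (adjusted p from 0.0753 to 0.181) and with DESeq2 (0.0556).

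iMDK moved PLIN2 by small amounts. Huh6 at 10 uM had 96.7, 88.7 and 98.8 CPM, which overlapped vehicle (0.14 ± 0.039, adjusted p = 0.00239), and at 5 uM 82.7, 81.9 and 82.4 (-0.06 ± 0.04, adjusted p = 0.251). HepG2 at 5 uM had 419, 400 and 385 CPM (0.09 ± 0.032, adjusted p = 0.0248), a call lost without vehicle library 2 (adjusted p = 0.0615) or treated library 1 (0.196), and at 10 uM 388, 380 and 375 (0.01 ± 0.032, adjusted p = 0.78). The lines differed in the 5 uM response by 0.17 ± 0.049 (adjusted p = 0.00606), lost without HepG2 treated library 1 (0.12, adjusted p = 0.0632). They differed in the 0.2 uM PKF118-310 response by 0.16 ± 0.046 (adjusted p = 0.00375), lost without Huh6 vehicle library 1 (0.11, adjusted p = 0.0562). At 10 uM iMDK the difference was -0.08 ± 0.05 (adjusted p = 0.184) and passed without Huh6 vehicle library 1 or treated library 2 (adjusted p = 0.0332 and 0.0202).

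**Figure D2:**
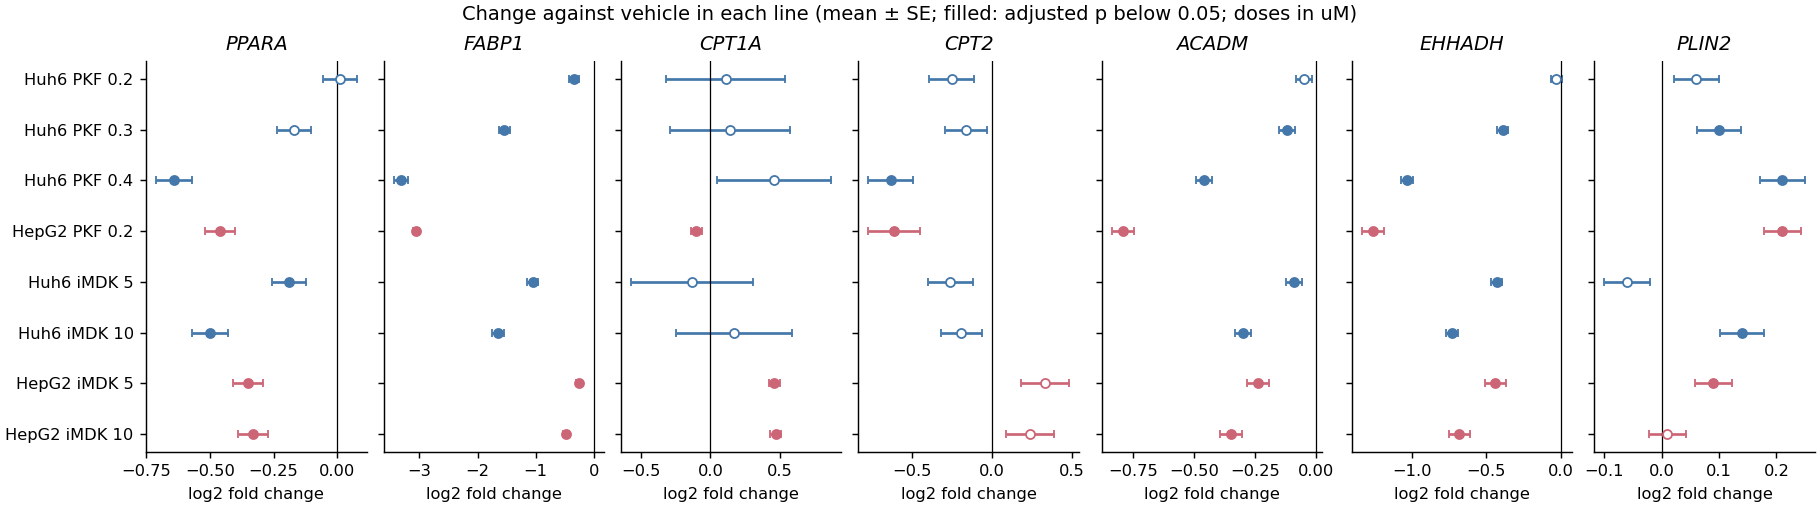
Log2 fold change against the vehicle of the same line for the 7 tested genes in Huh6 (blue) and HepG2 (red), each panel with its own axis and doses in uM. Points are estimates from 3 libraries a group, bars are SE, and filled points have an adjusted p below 0.05. CPT1A lies to the right of 0 under iMDK in HepG2, where FABP1, ACADM, EHHADH and PPARA lie to the left.

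Tested as differences between lines, 5 of the 7 genes responded unequally to 0.2 uM PKF118-310, 4 lower (28.1% of all genes tested) and 1 higher (28.3%) in HepG2. For iMDK these were 3 at 5 uM, all higher in HepG2 (15.6%), namely FABP1, CPT2 and PLIN2, and 1 higher at 10 uM (21%), namely FABP1. At 10 uM the difference for CPT2 was 0.47 ± 0.2 (adjusted p = 0.0561), and it passed without Huh6 vehicle library 1 (0.58, adjusted p = 0.0184) or HepG2 vehicle library 2 (0.58, adjusted p = 0.0242). Between doses within a line, FABP1 and EHHADH fell in Huh6 from 0.2 to 0.3 uM PKF118-310 (2 of 7, 9.75%), and 5 fell (19.2%) and 1 rose (21.6%) from 0.3 to 0.4 uM. For PPARA the first step was -0.18 ± 0.067 (adjusted p = 0.0516), and it passed without 0.3 uM library 3, with RLE size factors (0.0493 in both cases) and with only the compared groups fitted (0.0438). In the second step the CPT2 call (-0.47 ± 0.15, adjusted p = 0.00852) was lost without 0.3 uM library 2 or 0.4 uM library 3 (adjusted p = 0.0701 and 0.0668). The PLIN2 call (0.11 ± 0.039, adjusted p = 0.0207) was lost without 0.3 uM library 1 or 0.4 uM library 1 or 3 (0.0523 to 0.09) and with no filter on low counts (0.0568). From 5 to 10 uM iMDK 4 fell (12.2%) and 1 rose (12.7%) in Huh6, and FABP1 and EHHADH fell in HepG2 (6.94%). In HepG2 the ACADM step passed without 10 uM library 3 (-0.15, adjusted p = 0.0454) and the PLIN2 step without 5 uM library 3 (-0.1, adjusted p = 0.0443).

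Over the 10 tumour groups with 3 libraries, taken as group means of log2 CPM centred within each line, EHHADH ran closest to ACADM (Pearson r = 0.97) and then to FABP1 (0.93). PLIN2 ran against FABP1 (-0.84) and ACADM (-0.82). CPT1A is left out of these pairs, since 6 of the 10 groups are of Huh6, where it rested on 4 to 13 reads. These are descriptions over 10 points that share vehicle libraries and the same inhibitors. Among 9673 genes compared in the same way, the closest to FABP1 were SOAT2, SLC25A23 and MFSD3, with r from 0.992 to 0.994. SOAT2 makes cholesterol esters in hepatocytes. The closest to EHHADH were GALK1, PRUNE1 and ZNF217 (0.993 to 0.995). Those closest to ACADM were SDC2, ACACB and IL1R1 (0.991 to 0.994), of which ACACB makes the malonyl-CoA that blocks CPT1. PPARA was closest to GNPTAB, ACO1 and CLDN19 (0.979 to 0.985), and CPT2 to RGL3, THPO and SNAI3-AS1 (0.952 to 0.965). PLIN2 was closest to EMSLR, NDUFS4 and SLC38A2 (0.933 to 0.947). For CPT1A these were SCAMP2, COX17 and CDKN2D (0.945 to 0.972), with the same limit of few reads in the Huh6 groups.

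The other genes of the pathway, 92 in 7 lists, were counted in the same tests. In HepG2 at 0.2 uM PKF118-310, 12 of 13 tested genes of mitochondrial beta-oxidation fell and none of the 13 rose, with a list median of -0.46 against 0.01 over all genes. Of all genes tested 33.4% fell and 34.3% rose there, and in Huh6 at 0.4 uM 27.9% fell and 28.9% rose. HADH, the third enzyme of the spiral, fell most (-2.04 ± 0.065, from 57.4 to 13.9 CPM), and HADHA of the trifunctional protein fell less (-0.47 ± 0.031). Of 13 peroxisomal genes 9 fell and 1 rose, and ACAA1 among them fell by -1.36 ± 0.046. In Huh6 at 0.4 uM 10 of 13 mitochondrial genes fell and 1 rose, and 11 of 13 peroxisomal genes fell and 1 rose. CAT, the peroxisomal catalase, fell there by -1.26 ± 0.076.

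Under 10 uM iMDK the mitochondrial list fell in 11 of 13 genes with 1 higher in HepG2 and in 4 of 13 in Huh6, and a difference between these counts was not tested. Of all genes tested 27.2% were lower and 27.3% higher in HepG2, and 26.1% and 26% in Huh6. The peroxisomal list fell in 9 with 2 higher in HepG2 and in 10 with 3 higher in Huh6. In HepG2 5 of 11 tested genes of the list of other PPARA targets and lipid droplet genes were higher and 1 lower, with LPIN1, which makes diacylglycerol, up by 1.46 ± 0.05 and UCP2 up by 0.81 ± 0.062. The carnitine carrier gene SLC25A20, the step between CPT1A and CPT2, had 12.7 CPM against 12.5 with vehicle in HepG2 (0.02 ± 0.097), and fell in Huh6 (-0.53 ± 0.098, adjusted p = 1.15e-05).

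Binding and lipid droplet genes related to FABP1 and PLIN2 did not all move like them. FABP5, another fatty acid binding protein gene, rose in Huh6 from 6.85 to 11.6 CPM at 0.4 uM PKF118-310 (0.76 ± 0.1) and to 17.2 at 10 uM iMDK (1.32 ± 0.098), where FABP1 fell. Of the uptake, activation and binding list, 7 of 13 tested genes fell and 3 rose in Huh6 at 0.4 uM (27.9% and 28.9% of all genes tested). In HepG2 at 0.2 uM 8 of 12 fell and 3 rose (33.4% and 34.3%). ACSL5, which activates fatty acids, was among the 3 that rose in HepG2, from 14.7 to 95.7 CPM (2.7 ± 0.063). The droplet coat gene PLIN3 rose with PLIN2 in HepG2 at 0.2 uM (0.95 ± 0.033), and PLIN5, which is found on droplets of cells that burn fat, fell in Huh6 at 0.4 uM (-1.36 ± 0.1). VNN1, a known PPARA target in liver, rose in HepG2 from 0.431 to 15.6 CPM at 0.2 uM PKF118-310 (5.16 ± 0.21) and to 3.76 at 10 uM iMDK (3.1 ± 0.27).

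Of 12 tested nuclear receptor and coregulator genes 9 rose and 3 fell in HepG2 at 0.2 uM PKF118-310 (list median 0.36), and 3 rose and 4 fell in Huh6 at 0.4 uM (-0.01). The shares over all genes tested were 34.3% higher and 33.4% lower in HepG2, and 28.9% and 27.9% in Huh6. PPARD, a receptor of the same family, rose in HepG2 at 0.2 uM PKF118-310 from 61 to 285 CPM (2.22 ± 0.038, adjusted p = 3.66e-36), and fell in Huh6 at 0.4 uM (-0.66 ± 0.062). RXRA, the partner of PPARA, fell in both lines, by -0.89 ± 0.043 in HepG2 and -0.49 ± 0.033 in Huh6 at these doses. The coactivator gene PPARGC1A fell in HepG2 from 65.5 to 11.9 CPM (-2.46 ± 0.07) and was below 1 CPM in Huh6 with vehicle. PPARG had 37.2 CPM in HepG2 and 0.168 in Huh6 with vehicle. Among the pyruvate dehydrogenase kinases, PDK1, PDK2 and PDK3 fell in HepG2 at 0.2 uM PKF118-310, by -0.9 ± 0.061, -1.14 ± 0.08 and -1.29 ± 0.099. ANGPTL4, a secreted lipase inhibitor, was at 3.07 CPM there and fell to 2.19 (-0.48 ± 0.21, adjusted p = 0.0439).

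**Figure D3:**
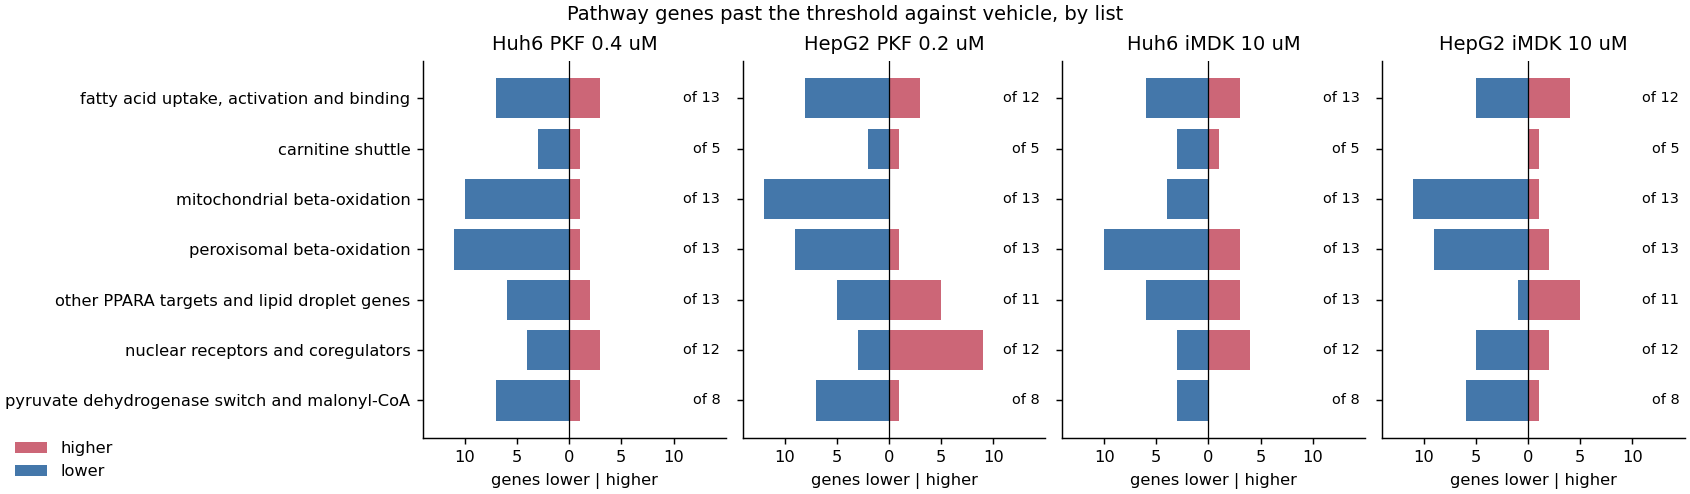
Number of genes in each of the 7 pathway lists that were lower (blue, to the left) or higher (red, to the right) against vehicle in 4 comparisons, with the number tested at the right. The mitochondrial list holds 12 lower and 0 higher of 13 in HepG2 at 0.2 uM PKF118-310 (33.4% and 34.3% of all genes tested). The list of other PPARA targets holds 1 lower and 5 higher of 11 in HepG2 at 10 uM iMDK (27.2% and 27.3%).

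In THP-1 6 of the 8 genes had reads in every library, PDK4 was at 0 as in the tumour lines, and FABP1 reads were found mainly in the libraries from co-culture with HepG2. With HepG2 2 of the 7 genes were called higher than in monoculture (12% of all genes tested), PPARA and, as a description only, FABP1. With Huh6 0 of 7 changed in either direction (1.83%). With Huh6 0 of 7 had an unadjusted p below 0.05 and 0 were called by DESeq2. FABP1 had 0 counts in the 3 monoculture libraries and 382, 423 and 343 counts with HepG2. Allowing 3 counts over the monoculture group, it was at least 398-fold higher. FABP1 passed the filter on low counts through the co-cultures with HepG2, so its calls against monoculture and against Huh6 co-culture are a description, with no test. With untreated Huh6 the libraries had 2, 0 and 0 counts. The labels say that THP-1 cells were sorted from direct co-culture.

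Hepatoblastoma markers also had reads in these libraries, and where those reads and the FABP1 reads came from was not tested. Levels in this paragraph are in CPM without TMM scaling. With HepG2 19 of 20 hepatoblastoma markers reached 1 CPM, and their summed level was 2670 to 3170 CPM. In monoculture it was 49.2 to 62.1, where AFP, APOB, TTR and 5 others were at 0. The median marker stood at 9.39 to 10.2% of its HepG2 level. It stood at 4.86 to 6.46% with HepG2 given 5 uM iMDK, at 1.58 to 4.11% with 10 uM, and at 0.0996 to 1.66% with Huh6. Single markers spread widely around these medians, from 0.857 to 18.3% with untreated HepG2. FABP1 stood at 7.23, 8.42 and 6.78% of its HepG2 level, within that spread. Tumour reads at the median share would give 31.5 ± 1.5 CPM of FABP1 (SD, n = 3), and 24.4 ± 2.79 were observed. Macrophage markers summed to 5660 to 6360 CPM with HepG2 and 5790 to 6150 in monoculture. In both groups 12 of the 14 reached 1 CPM, all but CD68 and MSR1.

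FABP1 in THP-1 went down with the iMDK dose given to HepG2, as the median marker share did. It had 178, 127 and 157 counts after 5 uM and 98, 32 and 41 after 10 uM, and the CPM of the 3 groups did not overlap. The change from untreated HepG2 was -2.57 ± 0.31 at 10 uM (adjusted p = 0.000362), where 1 of 7 genes was called (3.34% of all genes tested). Without HepG2 co-culture library 3, PPARA (-0.4, adjusted p = 0.0488) and ACADM (0.55, adjusted p = 0.0375) were called there as well, and with no filter on low counts ACADM (0.34, adjusted p = 0.0274). At 5 uM it was -1.3 ± 0.29 (adjusted p = 0.0832), where 0 of 7 were called (0.0903%), 2 had an unadjusted p below 0.05 and DESeq2 called 1. In the 5 uM comparison same-numbered libraries deviated together, and with the replicate number as a block FABP1 was called (-1.33, adjusted p = 0.00245). Without TMM scaling the expected level from tumour reads was 15.4 ± 2.6 CPM at 5 uM and 7.41 ± 3.19 at 10 uM, and 9.98 ± 1.86 and 4.01 ± 2.33 were observed. After subtraction of the estimated tumour reads no FABP1 count was left in any of the 9 libraries with HepG2.

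**Figure D4:**
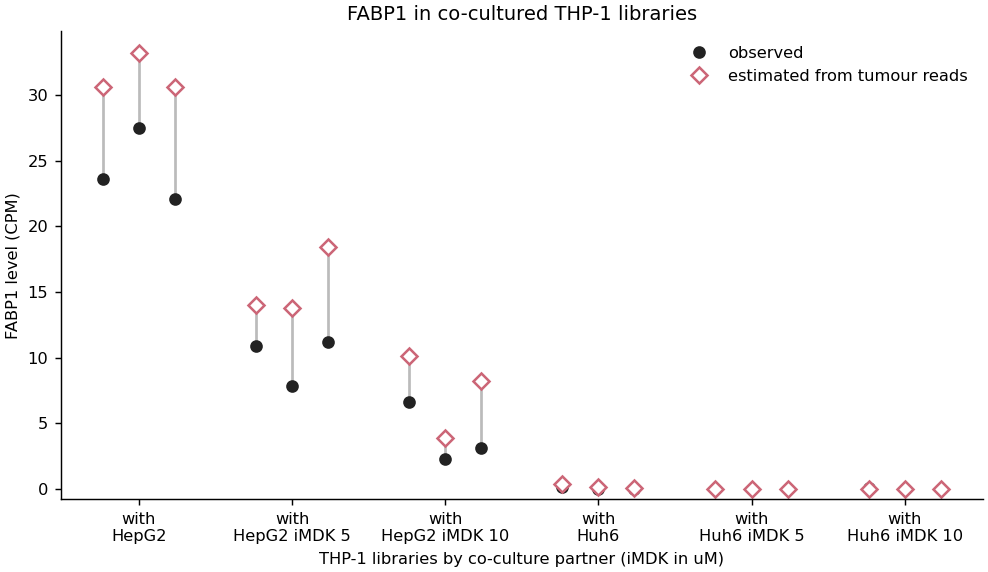
FABP1 level in CPM without TMM scaling in each THP-1 co-culture library, as observed (filled circles) and as estimated from the share of tumour reads in that library (open diamonds), joined by a grey line, by partner and iMDK dose in uM. The estimate lies above the observed level in each of the 9 libraries with HepG2.

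PPARA was the other gene called in THP-1 with HepG2. Its libraries had 19.7, 19.1 and 19.9 CPM in monoculture, 27, 26.3 and 22.3 with HepG2 and 17.8, 16.9 and 17.3 with Huh6. The change with HepG2 was 0.37 ± 0.11 from monoculture (adjusted p = 0.0149) and 0.54 ± 0.11 from Huh6 co-culture (adjusted p = 0.00103). Tumour reads would give 6.82 ± 0.315 of the 25.4 CPM observed without TMM scaling. After their subtraction the change from monoculture was 0.11 (adjusted p = 0.543) and that from Huh6 co-culture 0.29 (adjusted p = 0.0899). The amount removed rests on a median share around which single markers ran from 0.857 to 18.3%, and which gave more FABP1 than was observed. Where the PPARA reads came from was not tested. The call against monoculture was also lost without monoculture library 2 or HepG2 co-culture library 1 or 2 (adjusted p from 0.0518 to 0.0676), and with no filter on low counts (0.07).

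ACADM was lower with HepG2 than with Huh6, where 3 of the 7 genes were called (16.7%), FABP1 among them as a description with no test. Its CPM were 97.6, 97.6 and 144 with HepG2 and 142, 163 and 169 with Huh6, so 1 library overlapped (-0.48 ± 0.15, adjusted p = 0.0272). The call was lost without HepG2 co-culture library 1 or 2 or Huh6 co-culture library 2 or 3 (adjusted p from 0.105 to 0.151), and after subtraction of tumour reads (-0.41, adjusted p = 0.0767). Against monoculture the change was -0.4 ± 0.15 (adjusted p = 0.0593), from 129, 157 and 160 CPM. It passed without monoculture library 1 (-0.48, adjusted p = 0.0389) or HepG2 co-culture library 3 (-0.59, adjusted p = 0.00489), and with no filter on low counts (-0.39, adjusted p = 0.00129). ACADM had its highest library in replicate 3 in 7 of 7 THP-1 groups, and with the replicate number as a block it was called too (-0.41, adjusted p = 0.000646), although same-numbered libraries of these 2 groups did not all deviate together.

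CPT1A, CPT2, EHHADH and PLIN2 were not called in any THP-1 comparison. After subtraction of tumour reads from the HepG2 co-cultures CPT2 passed against monoculture (0.43, adjusted p = 0.0216). The subtraction took only 2.15% of the CPT2 level with HepG2, and the reason for this call was not tested. Over all 21 libraries CPT1A ran from 35.8 to 63.4 CPM, CPT2 from 18 to 25.4, EHHADH from 5.84 to 12.7 and PLIN2 from 249 to 522. PLIN2 had its lowest library in replicate 1 in 7 of 7 groups, at 249 to 334 CPM, against 339 to 522 in the others. EHHADH had its highest in replicate 1 in 6 of 7. With Huh6 given iMDK 0 of 7 were called at 5 uM (0.0129% of all genes tested) or 10 uM (0.0581%). By an unadjusted p below 0.05 there were 0 at 5 uM and 1 at 10 uM (PPARA, 0.29 ± 0.11), and DESeq2 called 0 at either dose.

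**Figure D5:**
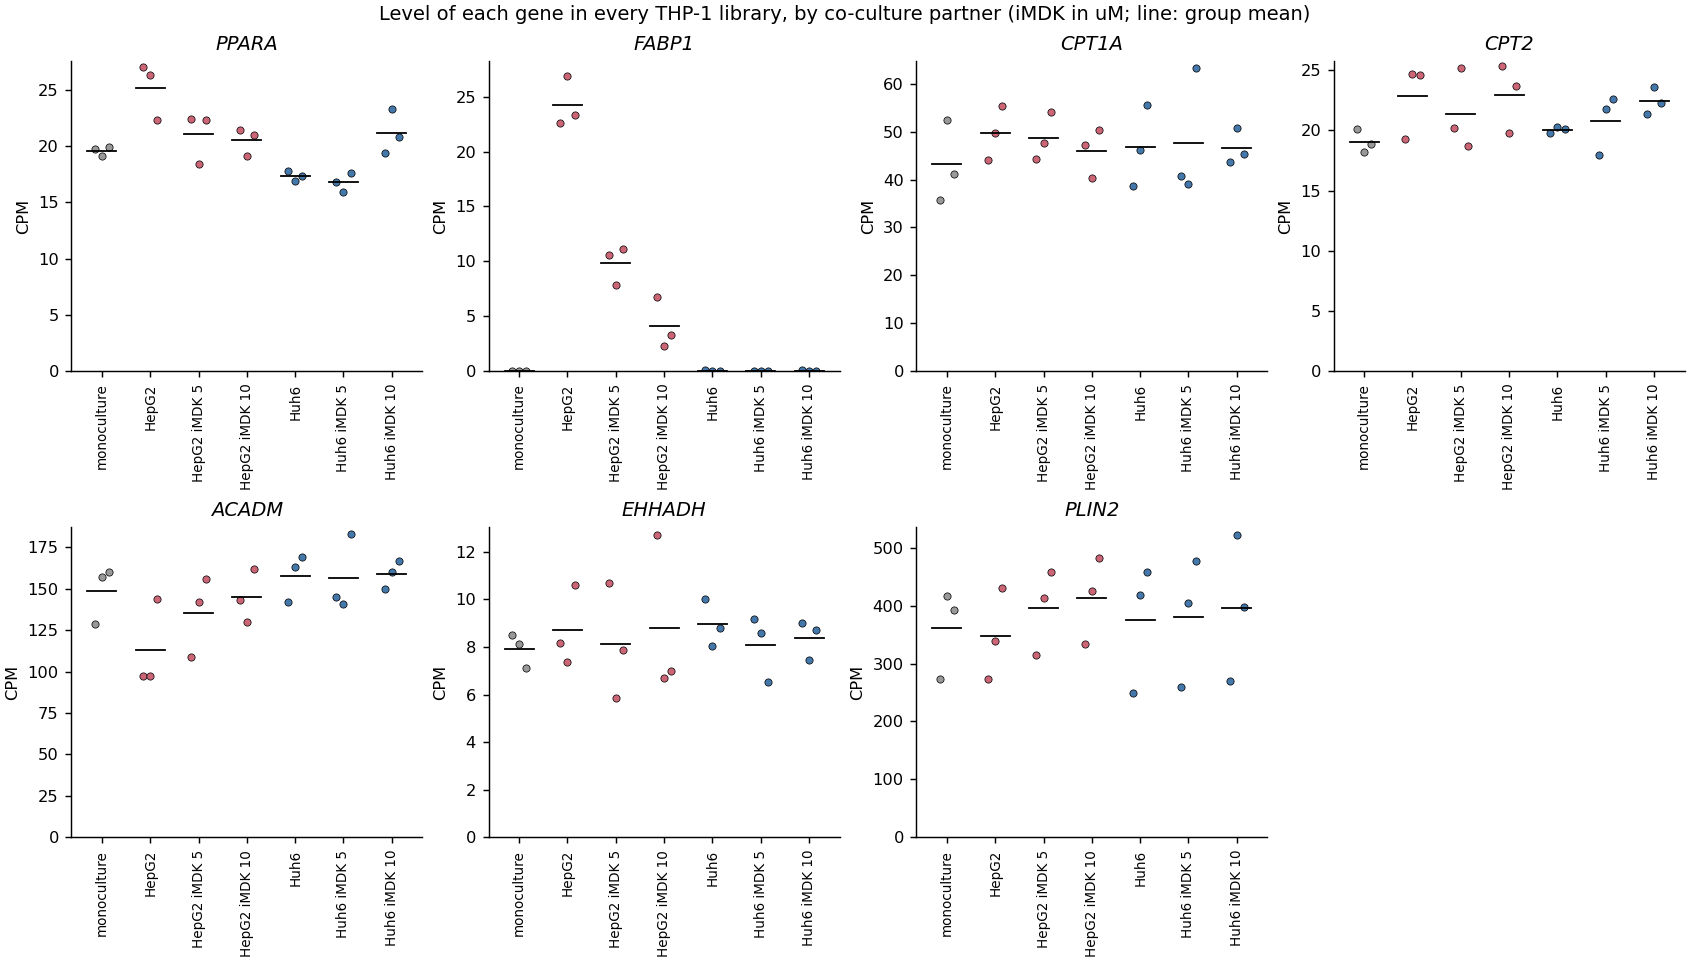
Level of each of the 7 detected genes in CPM in every THP-1 library, in monoculture (grey) and with HepG2 (red) or Huh6 (blue), untreated or given iMDK (doses in uM). Points are libraries and lines are group means. FABP1 lies above 2 CPM only in the 9 libraries with HepG2, and PLIN2 spreads within every group.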

How the data were processed

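The deposited values are raw read counts per gene, in 1 table for the tumour lines and 1 for THP-1. Per the submitters' processing notes the authors used STAR 2.7.3a, SAMtools 1.16.1, featureCounts and edgeR 3.36 with GRCh38. The annotation release and whether reads were counted by strand: not given in the sources used here. Genes were kept with filterByExpr (minimum count 10), scaled by TMM and tested in edgeR 4.0.16 (R 4.3.3, limma 3.58.1) by the quasi-likelihood F test on group means, fitted over the 18 Huh6, 13 HepG2 or 21 THP-1 libraries, or over the groups concerned for differences between lines. P-values were adjusted by Benjamini-Hochberg over all genes tested (15029, 15451 and 15500 in the 3 fits). The single HepG2 library at 0.3 uM entered the HepG2 fit and has no test. The test script was tested on simulated data.

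Tumour reads in THP-1 libraries were estimated, without TMM scaling, from those hepatoblastoma markers that reached 100 CPM in the partner line. Each marker's level, less its monoculture mean, was taken as a percentage of the partner line's level at the same iMDK dose (48 h there, 24 h here), and the median over markers was the share. Same-numbered libraries deviated together, with all r above 0.1, in 1 comparison, THP-1 with HepG2 given 5 uM iMDK against untreated HepG2 (r of 0.39, 0.14 and 0.38). All 3 libraries were also closest to their own number in THP-1 with Huh6 against monoculture (0.23, 0.1 and 0.08). The same held with Huh6 given 5 uM iMDK against untreated Huh6 (0.32, 0.07 and 0.2), and between the iMDK doses in HepG2 (0.01, 0 and 0.01). The main tests used no pairing, and the block was run as an alternative.

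All 8 members were described in every group. Pathway genes were named where they were among the 3 largest called changes of a list and direction (mean log2 CPM of at least 0), or belonged to a set of 12 always named; 2 of these are not reported here. For each member the 3 most correlated genes were named (mean log2 CPM of at least 2). The members and lists were chosen with earlier results of these data known. Alternatives were RLE size factors, no filter, DESeq2 1.42.0, a replicate block, only the compared groups, each library left out, and subtraction of tumour reads. For vehicle between lines a block shared by both lines was added after seeing the data.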

Additional observations from a re-analysis of the deposited data

Results flagged for a closer look

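The response of 5 genes to 0.2 uM PKF118-310 differed between the lines by edgeR's interaction test, given as HepG2 minus Huh6 on the log2 scale. The differences were -2.7 for FABP1, -1.22 for EHHADH, -0.74 for ACADM, -0.47 for PPARA and 0.16 for PLIN2. In Huh6 the changes of EHHADH, ACADM, PPARA and PLIN2 at this dose were not called against vehicle.

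For iMDK the sign of the FABP1 difference was the opposite, at 0.82 for 5 uM and 1.21 for 10 uM, since FABP1 fell more in Huh6. At 5 uM the response also differed for CPT2 (0.62) and PLIN2 (0.17).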

How the results depend on the processing

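Of 69 called tumour line results on single genes, 56 kept their direction and call under every alternative run, and of 6 in THP-1, 3 did. CPT1A between the vehicle lines is in both tumour line counts as a description, with no test. The 3 in THP-1 are the FABP1 calls, and those against monoculture and against Huh6 co-culture are descriptions, with no test. Subtraction of tumour reads left all 3 without a test, since no FABP1 count remained with HepG2. They are therefore not shown to hold under that alternative. None of the results on single genes reversed. Leaving out libraries moved the members called from 1 to between 0 and 1 (Huh6, 0.2 uM PKF118-310), from 4 to between 2 and 4 (Huh6, 5 uM iMDK), and for the differences between lines from 3 to between 2 and 5 (5 uM iMDK) and from 1 to between 1 and 3 (10 uM). In THP-1 it moved them from 2 to between 1 and 3 (HepG2 against monoculture, FABP1 counted as a description) and from 1 to between 1 and 3 (HepG2 with 10 uM iMDK). Without the filter on low counts 2 were called for Huh6 at 5 uM iMDK. In THP-1 with HepG2 given 5 uM iMDK, 1 was called without the filter, with the replicate block, with DESeq2 and with only the compared groups. At 10 uM 2 were called without the filter or with the block, and 0 after subtraction of tumour reads. After subtraction 1 was called for HepG2 against monoculture, namely CPT2, which the main test did not call. PPARA was lost there and FABP1 was left without a test. Between HepG2 and Huh6 co-cultures 0 were called after subtraction. The cause was not tested.

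The replicate block changed 0 of 105 tumour line results and 3 of 49 in THP-1: FABP1 at 5 uM iMDK, and ACADM with HepG2 against monoculture (-0.41, adjusted p = 0.000646) and at 10 uM iMDK (0.37, adjusted p = 0.00652). In the latter 2 comparisons same-numbered libraries did not all deviate together (lowest r of 0.01 and 0.05, 2 of 3 closest to their own number), so the number was not taken as a pair. For vehicle between lines the block within each line was not run, since it leaves no residual degrees of freedom. A replicate block shared by both lines, chosen after seeing the data, again called 7 of 7 members, CPT1A among them as a description.

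Counts over all genes depended on the fit. For Huh6 at 0.2 uM PKF118-310 337 fell to between 215 and 242 with a library left out. In THP-1 the block gave 5118 for 3354 (HepG2 against monoculture), 4505 for 2586 (HepG2 against Huh6), 927 for 283 (Huh6 against monoculture), 614 for 14 and 1802 for 518 (HepG2 given 5 and 10 uM iMDK), and 21 for 2 and 75 for 9 (Huh6 given 5 and 10 uM). For Huh6 against monoculture DESeq2 gave 447, no filter 689 and subtraction 51. For HepG2 given 5 uM they gave 165, 320 and 450. No filter and subtraction gave 854 and 985 at 10 uM. With only the compared groups 52 and 293 were called at these doses. For Huh6 given 5 and 10 uM DESeq2 gave 20 and 54, no filter 111 and 167, subtraction 1 and 1, and only the compared groups 0 and 0. Leaving out a library gave 92 to 246, 1569 to 2859, 0 to 46, 206 to 636, 0 to 25 and 0 to 62, for Huh6 against monoculture, HepG2 against Huh6, HepG2 given 5 and 10 uM and Huh6 given 5 and 10 uM.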
